A study of Homo sapiens with 8 samples.

Results

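Heat shock proteins and molecular chaperones encoded by 10 of the 19580 genes in a table of ribosome footprints were followed through recovery from RNA-protein crosslinking. The genes were taken by Ensembl gene ID. They are HSPA1A (ENSG00000204389), HSPA1B (ENSG00000204388), HSPA8 (ENSG00000109971), HSP90AA1 (ENSG00000080824), HSP90AB1 (ENSG00000096384), DNAJB1 (ENSG00000132002), HSPH1 (ENSG00000120694), HSPA5 (ENSG00000044574), HSPD1 (ENSG00000144381) and HSPE1 (ENSG00000115541). All 10 were in the table and all 10 passed the filter for testing, a mean of at least 1 RPKM (reads scaled by transcript length and by the library total). The cells were HAP1, an adherent, near-haploid human line that came from a chronic myeloid leukaemia line, either wild type or carrying a knockout of RNF14, an E3 ubiquitin ligase that acts at stalled ribosomes. Whether the knockout line is a single clone is not given in the sources used here. Cells of both genotypes had taken up 4-thiouridine (4SU), a photoreactive uridine analogue, at 5 uM for 18 h and had been exposed to UVA light at 6 kJ/m2, so no library came from untreated cells. They were collected at once (0 min) or after 30 min, with 2 biological replicates in each of the 4 groups.

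Heat shock proteins are chaperones that bind unfolded or partly folded polypeptides and keep them from aggregating. HSP70 proteins cycle between ATP and ADP states under the control of J-domain proteins, which deliver substrates and stimulate ATP hydrolysis, and of nucleotide exchange factors. HSP90 acts later, on nearly folded clients such as kinases and steroid receptors. The cytosolic members divide into forms made at all times and forms whose transcription is switched on by the factor HSF1 when unfolded proteins accumulate. HSF1 binds heat shock elements, arrays of the unit GAA and its reverse complement TTC. The endoplasmic reticulum and the mitochondrial matrix have chaperones of their own, under partly separate control.

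The promoters are shown first. The classes of control used below were assigned from general knowledge of the genes and not from the matches given here. Within the 250 bases before each listed transcription start (RefSeq, GRCh38.p14), both strands were searched for a pair of heat shock units, GAANNTTC or TTCNNGAA, and for a run of 3 units, GAANNTTCNNGAA and its reverse complement, which contains both pairs. The endoplasmic reticulum stress response element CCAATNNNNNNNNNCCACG was also searched. All 10 members matched the promoter table by symbol, with 16 listed starts. A pair of units was present before 7 of these 16 starts, 1 in each of 7 members, and before 11.6% of all 35116 starts in the table. A run of 3 units was present before 4 of the 16, in HSPA8, HSP90AA1, HSP90AB1 and HSPD1, and before 0.441% of all starts. The matches do not follow the classes. HSPA8 and HSP90AB1 are classed as constitutive, while HSPA1A, HSPA1B and DNAJB1, classed as inducible, had a pair only. The stress response element was found before 1 of the 16, in HSPA5, and before 0.0740% of all starts. No match lay in the windows of HSPH1 (gene at chr13:31134973-31162388) and HSPE1 (gene at chr2:197500379-197503449), which says only that these letters are not there. Stretches of 30 bases are given on the gene's strand, with 1 match in capitals, a run of 3 units where there was one and otherwise a pair or the stress response element, and the nearest of its kind to the start:
HSPA1A, chr6:31815426-31815455, plus strand: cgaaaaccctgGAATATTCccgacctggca
HSPA1B, chr6:31827622-31827651, plus strand: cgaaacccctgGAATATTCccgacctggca
DNAJB1, chr19:14518426-14518455, minus strand: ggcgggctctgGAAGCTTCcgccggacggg
HSPA8, chr11:123062171-123062200, minus strand: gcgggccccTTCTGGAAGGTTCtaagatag
HSP90AA1, chr14:102087111-102087140, minus strand: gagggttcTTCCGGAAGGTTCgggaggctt
HSP90AB1, chr6:44247823-44247852, plus strand: tgagattgTTCTGGAAGCTTCtggattctg
HSPD1, chr2:197500059-197500088, minus strand: attttctgGAAAGTTCTGGAAccgagcgag
HSPA5, chr9:125241386-125241415, minus strand: ccttcaCCAATCGGCGGCCTCCACGacggg
The match ended 98 bases before the listed start in HSPA1A, 97 in HSPA1B, 39 in DNAJB1, 42 in HSPA8, 75 in HSP90AA1, 99 in HSP90AB1, 227 in HSPD1 and 47 in HSPA5. The stretches of HSPA8, HSP90AA1, HSP90AB1, DNAJB1 and HSPD1 lie inside the RefSeq span of their gene, before a start downstream of its outer end. A match is a run of letters, not evidence that a factor was bound.

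HSPD1 and HSPE1, the large and small subunits of the mitochondrial folding chamber, lie head to head on chromosome 2 and are transcribed in opposite directions. HSPD1, on the minus strand, begins at position 197500274 and HSPE1 at 197500379, so 104 bases separate them. This stretch is shown because it lies before the first base of both genes. It was 74.0% G and C, held none of the heat shock pairs searched, and reads on the HSPE1 strand:
HSPD1-HSPE1 interval, chr2:197500275-197500378: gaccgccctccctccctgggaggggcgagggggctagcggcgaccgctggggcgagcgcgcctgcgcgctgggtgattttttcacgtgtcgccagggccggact

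Reads were recovered from RPKM, transcript length and the value of 1 read in each library, and 100% of the values came out whole. The libraries at 0 min held 778683 to 1241975 reads and those at 30 min 323946 to 717828, so depth and time moved together, and the part of depth in the results below was not tested. The 10 genes took 0.220% to 0.308% of the reads of a library. No RNA abundance was used here, so more RNA and more ribosomes per RNA cannot be told apart. Over 30 min the 11920 tested transcripts had a median log2 change of -0.26 in wild-type cells and of -0.12 in knockout cells, so a gene with a change of 0 had gained against most others. The footprint level of RNF14 and of lineage markers was not analysed here.

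Levels per length spanned a wide range. HSPE1 had the highest mean over the 8 libraries, 422 RPKM, and was above 98.5% of the tested transcripts. HSPA8, the constitutive cytosolic HSP70, followed at 204 RPKM, then HSPA5 at 176, HSP90AB1 at 175, HSPD1 at 119 and HSP90AA1 at 104 RPKM. This order depends on the transcript length. HSPA5 had 4464 reads in all on 3921 nt, and HSPA8 had 2522 on 2186 nt. The co-chaperones HSPH1 and DNAJB1 averaged 35.7 and 24.8 RPKM. The stress-inducible HSP70 genes were lowest, HSPA1A at 16.8 and HSPA1B at 8.33 RPKM. HSPE1 exceeded HSPA8 in 8 of 8 libraries, HSP90AB1 exceeded HSPD1 in 8 of 8 and HSP90AA1 exceeded HSPH1 in 8 of 8, as HSPA1A did HSPA1B. The last of these holds per length only, since in knockout 0 min replicate 2 HSPA1A had 15 reads and HSPA1B 17. So does the first, since HSPE1 had 1233 reads in all and HSPA8 had 2522. Other neighbours in this order changed places: HSPA8 was above HSPA5 in 5 libraries, HSPA5 above HSP90AB1 in 3, HSPD1 above HSP90AA1 in 6, HSPH1 above DNAJB1 in 7 and DNAJB1 above HSPA1A in 6.

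**Figure D1:**
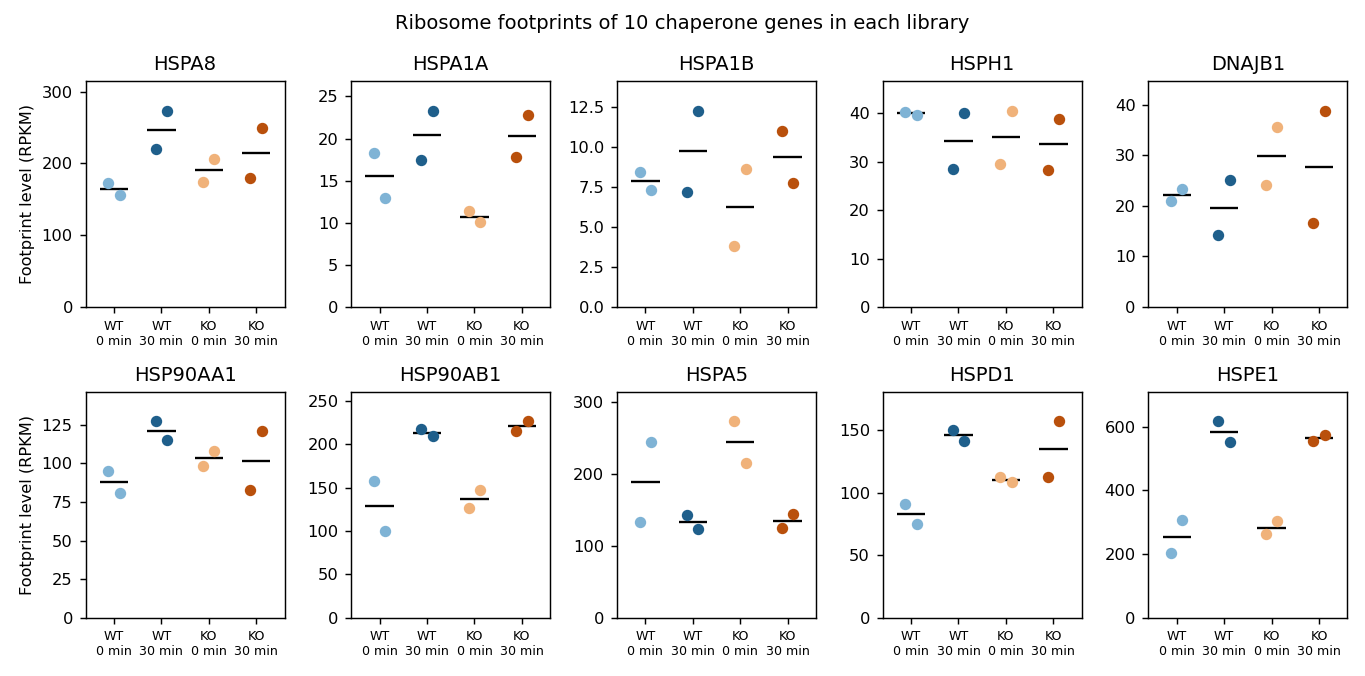
Footprint level (RPKM, linear axes from 0) of each chaperone gene in each library. Points are single libraries, 2 per group, and bars are group means; WT is wild type and KO the RNF14 knockout. HSPE1, HSP90AB1 and, by a narrow margin, HSPD1 lie higher in all 4 libraries at 30 min than in any at 0 min. HSPA5 is highest at 0 min in knockout cells.

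The first question was how the footprints of each chaperone changed during recovery. HSPE1 was the only member called higher (limma adjusted p below 0.05) in each genotype taken alone. Like HSPE1, HSP90AB1 and HSPD1 had both libraries at 30 min above both at 0 min in each genotype. HSPE1 is the co-chaperonin that closes the folding chamber. It stood at 204 and 307 RPKM in wild-type cells at 0 min and at 618 and 553 RPKM at 30 min. The knockout libraries had 262 and 304 RPKM, followed by 554 and 575 RPKM. Every library at 30 min was higher than every library at 0 min. The log2 change was 1.22 (SE 0.19, limma adjusted p = 0.00871) in wild-type cells and 0.997 (SE 0.19, limma adjusted p = 0.0339) in knockout cells.

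The HSPE1 values rested on 267 reads at 0 min and 406 at 30 min in wild-type cells and on 313 and 247 in knockout cells. As shares of all reads this is a ratio of 2.29 in wild-type cells, with an exact 95% interval (Clopper-Pearson, counting error only) from 1.96 to 2.69. In the knockout the ratio was 2.04, with an interval from 1.72 to 2.41. At 557 nt its transcript was the shortest of the 10. Short transcripts, the 333 of at most 600 nt that were tested, had a median log2 change of -0.04 in wild-type cells and of -0.28 in knockout cells. Of these short transcripts 13.5% in wild-type cells and 14.7% in knockout cells had a log2 change at or above that of HSPE1, against 1.33% and 3.52% of all tested transcripts. The part of length in the result was not tested. The wild-type call was lost without wild type 30 min replicate 1 (limma adjusted p = 0.0972) or 2 (limma adjusted p = 0.0766). The knockout call was lost without any 1 of the 4 knockout libraries or the 2 wild-type libraries at 30 min, with limma adjusted p from 0.0614 to 0.243, and with median centring (limma adjusted p = 0.106).

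HSPD1, the mitochondrial chaperonin HSP60 that forms the chamber itself, was at 91.0 and 74.7 RPKM in wild-type cells at 0 min and at 150 and 141 RPKM at 30 min. Values in knockout cells were 112 and 109 RPKM, then 113 and 157 RPKM. Wild type was thus clearly apart between times, while 1 knockout library at 30 min lay just above both at 0 min. The log2 change was 0.81 (SE 0.20, limma adjusted p = 0.0582) in wild-type cells and 0.27 (SE 0.20, limma adjusted p = 0.530) in knockout cells, neither past the threshold of 0.05. The wild-type change did pass with median centring (limma adjusted p = 0.0249), with quantile normalization (limma adjusted p = 0.0447) and without either knockout library at 30 min (limma adjusted p = 0.0340 and 0.0355). The knockout change was 0.029 without knockout 30 min replicate 2 and 0.50 without replicate 1. By counting alone the read share was 1.78 times as high in wild-type cells (exact 95% interval 1.53 to 2.06) and 1.25 times as high in knockout cells (1.07 to 1.46).

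HSP90AB1 and HSP90AA1 are the cytosolic HSP90 proteins, the beta form made at all times and the alpha form raised by stress. HSP90AB1 was at 157 and 99.6 RPKM in wild-type cells at 0 min and at 217 and 209 RPKM at 30 min. Knockout cells went from 126 and 148 RPKM to 215 and 227 RPKM. No library at 0 min reached any library at 30 min. The log2 change was 0.76 (SE 0.21, limma adjusted p = 0.0822) in wild-type cells and 0.69 (SE 0.21, limma adjusted p = 0.130) in knockout cells. The wild-type change passed the threshold without wild type 0 min replicate 1 (limma adjusted p = 0.0243) and with median centring (limma adjusted p = 0.0249), and was 0.44 (limma adjusted p = 0.252) without wild type 0 min replicate 2. HSP90AA1 was at 95.3 and 80.9 RPKM in wild-type cells at 0 min and at 127 and 115 RPKM at 30 min. Knockout cells had 98.6 and 108 RPKM, then 82.7 and 121 RPKM, so the libraries at 30 min lay on either side of those at 0 min. Its log2 change was 0.46 (limma adjusted p = 0.253) in wild-type cells and -0.04 (limma adjusted p = 0.941) in knockout cells, and the knockout value turned positive with median centring, quantile normalization or a count model (limma voom with trimmed-mean scaling).

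HSPA8, which folds nascent chains and uncoats vesicles, was at 173 and 156 RPKM in wild-type cells at 0 min and at 220 and 274 RPKM at 30 min. The knockout libraries had 174 and 206 RPKM, followed by 179 and 249 RPKM. The times were apart in wild-type cells and overlapped in knockout cells. Its log2 change was 0.58 (SE 0.20, limma adjusted p = 0.143) in wild-type cells and 0.16 (SE 0.20, limma adjusted p = 0.735) in knockout cells, and the knockout value was -0.08 without knockout 30 min replicate 2.

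HSPA1A and HSPA1B encode the stress-inducible HSP70 and are near-identical neighbours on chromosome 6. The 250 bases before their starts matched at 235 of 251 aligned positions, 93.6%. How reads that match both were counted is not given in the sources used here, so the split between them is uncertain. The table also gives HSPA1A a transcript of 1909 nt where its RefSeq gene spans 2400 bases, while HSPA1B has 2517 in both. HSPA1A had 11 to 31 reads in a library and HSPA1B 9 to 19, and a count of 9 has an exact 95% Poisson interval from 4.12 to 17.1.

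HSPA1A was at 18.2 and 12.9 RPKM in wild-type cells at 0 min and at 17.5 and 23.3 RPKM at 30 min. Values in knockout cells were 11.4 and 10.1 RPKM, then 17.8 and 22.8 RPKM, so the times were apart in knockout cells and overlapped in wild-type cells. Its log2 change was 0.37 (SE 0.29, limma adjusted p = 0.495) in wild-type cells and 0.85 (SE 0.29, limma adjusted p = 0.159) in knockout cells. HSPA1B was at 8.48 and 7.36 RPKM in wild-type cells at 0 min and at 7.20 and 12.3 RPKM at 30 min. Knockout cells had 3.84 and 8.67 RPKM, then 11 and 7.79 RPKM, with overlap in both genotypes. Its log2 changes were 0.23 (limma adjusted p = 0.791), which was -0.04 with TPM scaling and -0.12 without wild type 30 min replicate 2, and 0.59 (limma adjusted p = 0.489). Added together, the paralogs had 92 and 76 reads at the earlier and later time in wild-type cells. The read share was 1.25 times as high (exact 95% interval 0.908 to 1.71, counting error only). In the knockout they had 71 and 49 reads, and the share was 1.78 times as high (1.21 to 2.60, counting error only). Fitted as 1 feature they changed by 0.34 (limma adjusted p = 0.510) and 0.78 (limma adjusted p = 0.167) on the log2 scale.

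DNAJB1 is the J-domain protein HSP40, itself a heat-inducible gene, and HSPH1 is HSP110, a nucleotide exchange factor that works with HSP70 in disaggregation. DNAJB1 was at 21.0 and 23.4 RPKM in wild-type cells at 0 min and at 14.3 and 25 RPKM at 30 min. The knockout libraries had 24.1 and 35.5 RPKM, followed by 16.5 and 38.9 RPKM. In both genotypes the libraries at 30 min enclosed those at 0 min. The log2 change was -0.22 (SE 0.40, limma adjusted p = 0.801) in wild-type cells and -0.20 (SE 0.40, limma adjusted p = 0.843) in knockout cells. Its sign turned with the scaling, to 0.06 in wild-type cells with median centring or quantile normalization and to 0.04 in knockout cells with voom. Without knockout 30 min replicate 1, on 12 reads for this gene, the knockout value was 0.40.

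HSPH1 was at 40.3 and 39.6 RPKM in wild-type cells at 0 min and at 28.4 and 40.1 RPKM at 30 min. Values in knockout cells were 29.6 and 40.6 RPKM, then 28.4 and 38.8 RPKM. It was the steadiest member, with its highest library 1.43 times its lowest. The log2 change was -0.24 (SE 0.27, limma adjusted p = 0.654) in wild-type cells and -0.06 (SE 0.27, limma adjusted p = 0.932) in knockout cells, with signs that turned under median centring. Its 95% intervals, -0.83 to 0.36 and -0.65 to 0.53, still allow changes in either direction.

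HSPA5 is BiP, the HSP70 of the endoplasmic reticulum lumen and the usual marker of stress in that compartment. It had the lowest change of the members in both genotypes, which in wild-type cells rested on 1 library. It was at 133 and 245 RPKM in wild-type cells at 0 min and at 142 and 124 RPKM at 30 min. Knockout cells went from 274 and 216 RPKM to 125 and 144 RPKM. The times were apart in knockout cells, while in wild-type cells replicate 1 at 0 min lay between the libraries at 30 min. The log2 change was -0.44 (SE 0.26, limma adjusted p = 0.365) in wild-type cells and -0.85 (SE 0.26, limma adjusted p = 0.129) in knockout cells. The wild-type value was -0.0058 without wild type 0 min replicate 2, above those of HSPH1 and DNAJB1, and -0.88 without replicate 1. Knockout cells gave 1992 HSPA5 reads at 0 min and 419 at 30 min. Counting error only, without the spread of replicates, the share of reads was 0.543 times as high (exact 95% interval 0.487 to 0.603). The same ratio in wild-type cells was 0.702 (0.639 to 0.771), though that change rested on 1 library. With replicate spread, the limma 95% interval of the knockout log2 change was -1.43 to -0.26. The knockout change passed the threshold without wild type 0 min replicate 1 (limma adjusted p = 0.0492), with TPM scaling (limma adjusted p = 0.0465) and with voom (adjusted p = 0.0396).

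**Figure D2:**
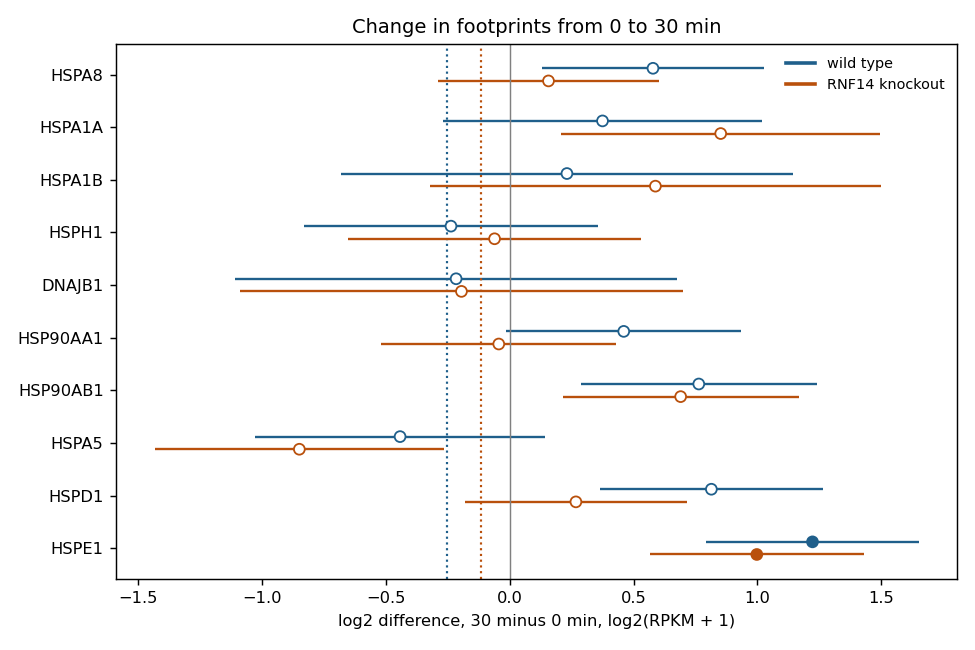
Log2 difference in footprint level, 30 minus 0 min on the log2(RPKM + 1) scale, for each gene in wild-type cells (blue) and RNF14 knockout (orange). Points are limma estimates with 95% intervals, filled where the adjusted p is below 0.05, and dotted lines mark the median of all tested transcripts in each genotype. HSPE1 has the only filled points, at 1.22 and 0.997, and HSPA5 lies furthest to the left.

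In all, 1 of the 10 members, HSPE1, was called in wild-type cells (limma-trend, Benjamini-Hochberg, adjusted p below 0.05), where 3.23% of 11920 tested transcripts were called and 1.79% were called higher. In the knockout 1 of 10, again HSPE1, was called, where 1.97% of all were and 0.646% were called higher. Their median log2 change was 0.42 in wild-type cells and 0.21 in knockout cells, beside -0.26 and -0.12 for all tested transcripts. Both libraries at 30 min lay above both at 0 min for 5 of 10 members in wild-type cells, namely HSPA8, HSP90AA1, HSP90AB1, HSPD1 and HSPE1, where 14% of tested transcripts did, and below both for 0, where 38.9% did. In knockout cells they lay above for 4 of 10, HSPA1A, HSP90AB1, HSPD1 and HSPE1, where 18.6% did, and below for 1, HSPA5, where 30.9% did. The change was positive for 7 members in wild-type cells and 6 in knockout cells, as it was for 31.0% and 41.3% of all tested transcripts. Limma voom, run as a count model on whole reads, called 5 members in wild-type cells (HSPA8, HSP90AA1, HSP90AB1, HSPD1 and HSPE1, all higher) and 3 in knockout cells (HSP90AB1 and HSPE1 higher, HSPA5 lower), where it called 7.16% and 2.63% of all tested transcripts. With limma-trend 0 members were called in either genotype without a filter, where 0.587% of transcripts in wild-type cells and 0.22% in knockout cells were called. When only the groups compared were fitted 0 were called, beside 0.898% and 0.411% of all, and with a prior variance free of trend 0 were called, beside 2 and 0 of the 11920 transcripts.

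Averaged over the genotypes, which sets 4 libraries against 4, HSPE1, HSP90AB1 and HSPD1 were called higher. In log2 units HSPE1 rose by 1.11 (SE 0.14, limma adjusted p = 0.00153), HSP90AB1 by 0.73 (SE 0.15, limma adjusted p = 0.0200) and HSPD1 by 0.54 (SE 0.14, limma adjusted p = 0.0469). These were 3 of 10 members, all higher, where 7.79% of all tested transcripts were called and 2.45% were called higher. The same 3 genes were those with every library at 30 min above every library at 0 min, a pattern that 3.17% of all tested transcripts showed. For HSPD1 this rested on 112.8 against 112.3 RPKM, both in knockout cells. No member had every library at 30 min below every library at 0 min, a pattern of 10% of tested transcripts. HSPE1 was called in each fit that left out 1 library, and lost its call without a filter (limma adjusted p = 0.0563) or without a trend in the prior (limma adjusted p = 0.0552), where the others lost theirs too. HSP90AB1 lost its call without either wild-type library at 30 min or either knockout library at 0 min, with limma adjusted p from 0.0663 to 0.0967. HSPD1 lost its call without any 1 of the 6 libraries other than wild type 0 min replicate 1 and knockout 30 min replicate 1, with limma adjusted p from 0.0809 to 0.167. It also lost it with TPM scaling (limma adjusted p = 0.126) and with a pseudocount of 0.1 (limma adjusted p = 0.0531).

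The 7 other members did not pass for the average. HSPA1A was at 0.61 (limma adjusted p = 0.0989), HSPA1B at 0.41 (limma adjusted p = 0.424), HSPA8 at 0.37 (limma adjusted p = 0.147) and HSP90AA1 at 0.21 (limma adjusted p = 0.437). HSPA1A did pass with quantile normalization (limma adjusted p = 0.0439) and voom (adjusted p = 0.0419), and HSPA8 with voom (adjusted p = 0.00694). HSPH1 was at -0.15 (limma adjusted p = 0.680), with a positive sign under median centring, quantile normalization and voom, and DNAJB1 was at -0.21 (limma adjusted p = 0.709). HSPA5 was at -0.65 (SE 0.19, limma adjusted p = 0.0629), and was called lower without wild type 0 min replicate 1 (limma adjusted p = 0.0113), with TPM scaling (limma adjusted p = 0.00788) and with voom (adjusted p = 0.0321). It was also called with a filter of 5 RPKM (limma adjusted p = 0.0458). Voom called 6 of 10 members for the average, where it called 8.04% of all tested transcripts.

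The next question was whether the loss of RNF14 altered chaperone footprints. At 0 min, directly after irradiation, 0 of the 10 members differed between knockout and wild type by limma-trend, where 0.168% of tested transcripts were called. Also 0 had an unadjusted p below 0.05, which 13.6% of all tested transcripts had. Voom called 0 members and 6.67% of all tested transcripts. The largest difference was that of HSPA1A, 10.7 ± 0.917 RPKM in knockout cells and 15.6 ± 3.74 RPKM in wild-type cells (SD, n = 2 each), a log2 difference of -0.48 with a 95% interval from -1.13 to 0.16. HSPA5 was at 245 ± 40.9 RPKM in knockout cells and 189 ± 79.2 RPKM in wild-type cells (SD, n = 2 each), a difference of 0.42 that was -0.01 without wild type 0 min replicate 1. HSPD1 was at 110 ± 2.52 RPKM in knockout cells and 82.9 ± 11.5 RPKM in wild-type cells (SD, n = 2 each), a difference of 0.42 with an interval from -0.03 to 0.87. DNAJB1 differed by 0.38, HSP90AA1 by 0.23 and HSPA8 by 0.21. The knockout libraries of HSPA8, HSP90AA1, DNAJB1 and HSPD1 lay above both wild-type libraries, 4 of 10 members where 21.5% of tested transcripts did. HSPA1A was the 1 member with both below, where 29.4% of all tested transcripts lay below. HSPA1B, HSP90AB1, HSPH1, HSPA5 and HSPE1 overlapped between the genotypes.

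At 30 min, too, 0 of 10 members differed by limma-trend, where 0.126% of tested transcripts were called, 0 had an unadjusted p below 0.05, where 10.9% of all did, and voom called 0 members and 0.185% of all. The values of knockout and wild type overlapped for all 10 genes, while 20.2% of tested transcripts had both knockout libraries above and 18.3% both below. The differences ran from -0.27 for HSP90AA1, with a 95% interval from -0.75 to 0.20, to 0.40 for DNAJB1, with an interval from -0.49 to 1.3 and a value of -0.19 without knockout 30 min replicate 2. HSPA1A, HSPA1B, HSPA8, HSP90AB1, HSPH1, HSPA5, HSPD1 and HSPE1 lay between them. HSPE1 was at 585 ± 46.0 RPKM in wild-type cells and 564 ± 14.5 RPKM in knockout cells, HSP90AB1 at 213 ± 5.79 and 221 ± 8.25 RPKM, and HSPA5 at 133 ± 13.1 and 135 ± 13.6 RPKM (SD, n = 2 each). The means of HSPA1A were 20.4 ± 4.11 and 20.3 ± 3.55 RPKM (SD, n = 2 each). The intervals do not show that the genotypes were alike.

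**Figure D3:**
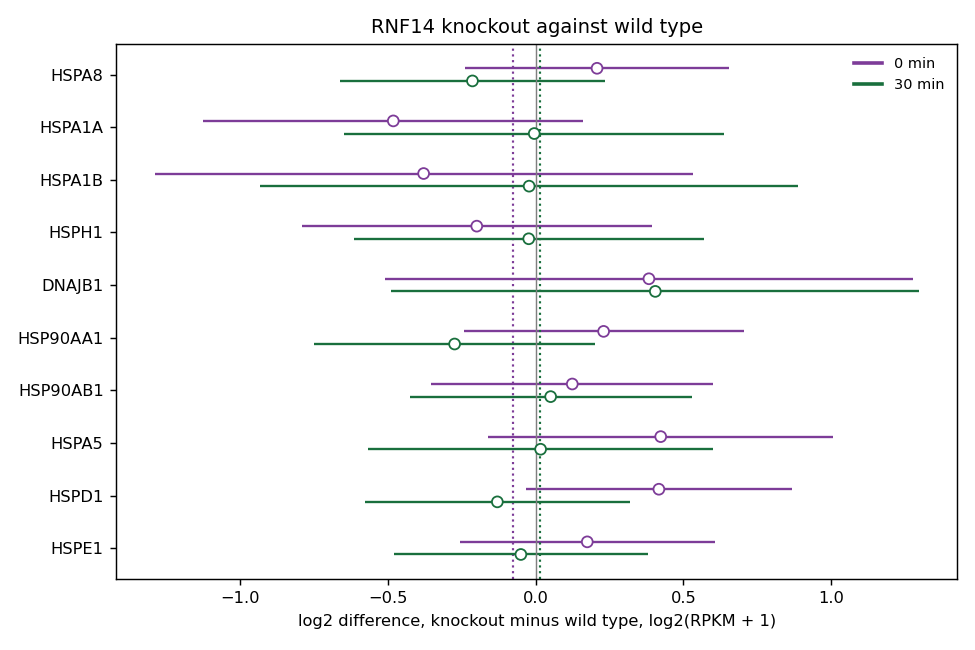
Log2 difference in footprint level, knockout minus wild type on the log2(RPKM + 1) scale, at 0 min (purple) and 30 min (green). Points are limma estimates with 95% intervals, all open because none has an adjusted p below 0.05, and dotted lines mark the median of all tested transcripts. Every interval includes 0, the widest being those of HSPA1B and DNAJB1.

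The difference between the recoveries, knockout minus wild type, was tested as an interaction. Limma-trend called 0 of 10 members, as it called 0.00839% of tested transcripts, 0 had an unadjusted p below 0.05, which 13.3% of all had, and voom called 0 members and 0.545% of all. The estimates ran from -0.55 (SE 0.29) for HSPD1, with a 95% interval from -1.18 to 0.09, to 0.48 (SE 0.41) for HSPA1A, with an interval from -0.43 to 1.39. HSP90AA1 was at -0.50 (SE 0.30), with an interval from -1.18 to 0.17, and HSPA1B, HSPA8, HSP90AB1, DNAJB1, HSPH1, HSPA5 and HSPE1 lay between the values of HSPD1 and HSPA1A too. So gaps between the times seen in 1 genotype only, such as that of HSPA8 in wild-type cells, were not shown to differ between the genotypes.

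Reads were also added up by compartment and control, which restates the values above as shares of a library. HSPD1 and HSPE1 together took 0.0328% ± 0.00147 of reads in wild-type cells at 0 min and 0.0653% ± 0.00394 at 30 min. Knockout cells gave them 0.0406% ± 0.00112 and 0.0617% ± 0.00785 (SD, n = 2 each). The constitutive HSPA8 and HSP90AB1 took 0.0691% ± 0.0131 and 0.109% ± 0.00683 in wild-type cells and 0.0770% ± 0.00886 and 0.104% ± 0.0129 in knockout cells (SD, n = 2 each). Neither of these classes had a library at 30 min as low as any at 0 min, a pattern not counted for other sets of genes. The 5 inducible cytosolic genes, HSPA1A, HSPA1B, HSP90AA1, DNAJB1 and HSPH1, took 0.0548% ± 0.00428 and 0.0653% ± 0.00326 in wild-type cells. In the knockout their share was 0.0588% ± 0.00751 and 0.0599% ± 0.0157 (SD, n = 2 each), with overlap between the times. In wild-type cells the times were apart, with 0.0578% and 0.0518% at 0 min and 0.0630% and 0.0676% at 30 min. HSP90AA1 held 321 of the 452 and 209 of the 349 reads of this class in wild type at 30 min. HSPA5 alone took 0.0743% ± 0.0310 and 0.0522% ± 0.00513 in wild-type cells and 0.0960% ± 0.0161 and 0.0529% ± 0.00533 in knockout cells (SD, n = 2 each). At 0 min this was the largest of the 4 class shares by its mean in both genotypes. In wild type 0 min replicate 1 it was 0.0523%, below the constitutive share of 0.0784%.

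**Figure D4:**
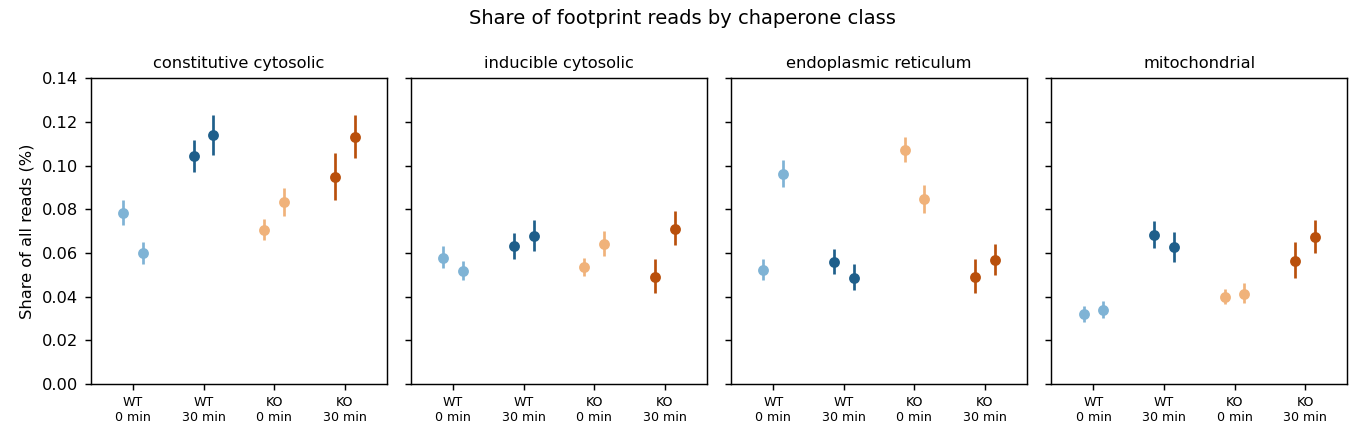
Share of all footprint reads (percent) in each library for the chaperone classes, with exact 95% binomial intervals that cover counting error only. Mitochondrial and constitutive cytosolic shares are higher in the 4 libraries at 30 min than in the 4 at 0 min. The inducible share is apart between the times in wild-type cells, higher at 30 min, and overlaps in knockout cells. The endoplasmic reticulum share, which is HSPA5, is highest in knockout 0 min replicate 1.

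Ratios of related genes within a library do not depend on how libraries are scaled. HSP90AA1 to HSP90AB1 was 0.606 and 0.812 in wild-type cells at 0 min and 0.586 and 0.551 at 30 min. Knockout cells had 0.781 and 0.731, then 0.384 and 0.533. All 4 ratios at 30 min were below all 4 at 0 min, the closest being 0.586 and 0.606 in wild-type cells. In these libraries the alpha form thus held less against the beta form at 30 min. HSPA8 to HSPH1 was 4.28 and 3.93 in wild-type cells at 0 min and 7.74 and 6.83 at 30 min. Knockout cells had 5.88 and 5.08, then 6.32 and 6.42. Here, too, the times were apart, with every library at 30 min above every library at 0 min. How many other pairs of genes kept the times apart was not counted. HSPA8 to DNAJB1 was 8.20 and 6.66 in wild-type cells at 0 min and 15.4 and 10.9 at 30 min. Knockout cells had 7.24 and 5.81, then 10.9 and 6.41, with overlap. HSPD1 to HSPE1 was 0.447 and 0.244 in wild-type cells at 0 min and 0.243 and 0.256 at 30 min. Knockout cells had 0.429 and 0.357, then 0.203 and 0.273. The paired mitochondrial genes thus did not move in step in every library, and wild type 0 min replicate 2 lay with the libraries at 30 min. HSPA1A to HSPA1B ranged from 1.16 to 2.97, both extremes in knockout cells at 0 min, on 12 to 27 reads of a gene in a library.

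**Figure D5:**
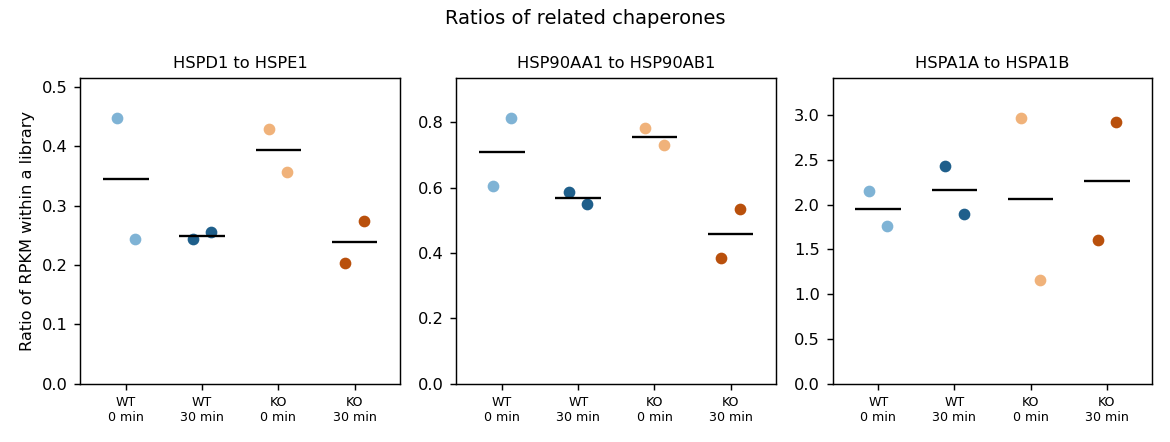
Ratio of RPKM between related chaperones within each library (linear axes from 0), with points for libraries and bars for group means of 2. HSP90AA1 to HSP90AB1 is at most 0.586 in the 4 libraries at 30 min and at least 0.606 in the 4 at 0 min; the HSPD1 to HSPE1 and HSPA1A to HSPA1B ratios overlap.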

How the data were processed

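Ribosome footprints of 8 HAP1 libraries were used. The authors deposited 1 table of RPKM values with a length for each transcript, 1 transcript per gene. Cutadapt, STAR 2.7.10a and the build hg38 come from the submitters' processing notes. The counted region and the handling of reads with several matches are not given in these sources. Per the labels' protocols, lysates contained cycloheximide and were digested with RNase I, and footprints were size-selected and amplified, so counting intervals do not cover PCR duplicates. The column for knockout at 30 min replicate 1 has a suffix that no label explains and was matched by genotype, time and replicate.

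Limma-trend (limma 3.58.1, R 4.3.3) was fitted to log2(RPKM + 1) of all 11920 transcripts whose mean was at least 1 RPKM, with 4 group means, no replicate block and Benjamini-Hochberg adjustment over all of them, two-sided, with a threshold of 0.05. Log2 differences are on that scale, which understates changes of low genes. Reads were recovered as RPKM times length, divided by the smallest such product above 0 in the library, which was taken as 1 read, within a tolerance of 0.05. Alternatives were a pseudocount of 0.1 or 5, dropping the filter or raising it to 5 RPKM, TPM, median centring, quantile normalization, a total without the most read transcript, a replicate block, no trend, only the groups compared, voom with trimmed means, the HSPA1 paralogs as 1 feature, and leaving out each library. Voom with library totals and the values of short transcripts were added after the data had been seen. The fit was tested on simulated counts. The rule for named genes was to name all 10 members in every comparison. Classes of control and compartment were assigned from general knowledge of the genes. The members and lists were chosen with earlier results of these data known. The gene table used here held 0 Ensembl IDs, so the wider chaperone lists, the lineage markers and the search for genes like DNAJB1 were not run by name. Promoters are RefSeq's, GRCh38.p14. Other tools were Python 3.11.15, numpy 2.4.6, pandas 2.3.3, scipy 1.17.1 and matplotlib 3.10.9.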

Additional observations from a re-analysis of the deposited data

How the results depend on the processing

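Limits common to all results are 2 libraries a group, few reads for HSPA1A, HSPA1B and DNAJB1, and a scale relative to the library total. The count of members called was 1 in wild type, 1 in the knockout and 3 for the average. It was 0 in all 3 with no filter and with no trend in the prior, and 0 and 0 in wild type and knockout when only the groups compared were fitted. It was 2 in wild type with a filter of 5 RPKM, 2 in the knockout with TPM scaling, 3 and 0 in wild type and knockout with median centring, and 2 in wild type after quantile normalization. For the average it was 4 with a filter of 5 RPKM, 4 after quantile normalization and 2 with a pseudocount of 0.1. Voom gave 5, 3 and 6, where it called 7.16%, 2.63% and 8.04% of all transcripts, and with library totals 4, 3 and 5, where it called 9.87%, 3.36% and 11.3%. Leaving out 1 library gave 0 to 2 in wild type, 0 to 2 in the knockout and 1 to 4 for the average. The genotype comparisons and the interaction stayed at 0 in every setting run. With a replicate block the counts were 1, 1 and 2, HSPD1 losing its call for the average (limma adjusted p = 0.0636). Deviations of same-numbered libraries from their group means correlated between -0.08 and 0.07 over all tested transcripts. This showed no pairing by replicate number. It cannot exclude one, since counting error in transcripts with few reads weakens such correlations.

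Values that turned sign were all uncalled, and the cause was not tested. With TPM scaling HSPA1B in wild-type cells was -0.0401. With median centring DNAJB1 and HSPH1 were 0.0625 and 0.0418 in wild-type cells, HSP90AA1 and HSPH1 were 0.0263 and 0.0093 in knockout cells, and HSPH1 was 0.0256 for the average. After quantile normalization DNAJB1 was 0.0556 in wild-type cells, HSP90AA1 and HSPH1 were 0.19 and 0.0954 in knockout cells, and HSPH1 was 0.0423 for the average. With voom HSP90AA1, DNAJB1 and HSPH1 were 0.0705, 0.036 and 0.0852 in knockout cells, HSPH1 was 0.0266 for the average, and with library totals it was 0.00028 in knockout cells. When each library was left out in turn, recovery in wild-type cells ranged from -0.60 to 0.17 for DNAJB1, from -0.48 to 0.0031 for HSPH1 and from -0.12 to 0.58 for HSPA1B. Recovery in knockout cells ranged from -0.32 to 0.23 for HSP90AA1, from -0.79 to 0.40 for DNAJB1, from -0.28 to 0.16 for HSPH1 and from -0.0794 to 0.39 for HSPA8. The average ranged from -0.50 to 0.0905 for DNAJB1, the genotype difference of HSPA5 at 0 min from -0.0137 to 0.86 and that of DNAJB1 at 30 min from -0.19 to 0.998.

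With the most read transcript left out of the total, the inducible share at 30 min in wild type was 0.0714%, the constitutive one 0.119% and the mitochondrial one 0.0714%. The mitochondrial share at 0 min was then 0.0353% in wild type and 0.0432% in the knockout. All 10 genes took 0.248% and 0.319% in wild type at 0 and 30 min and 0.290% in the knockout at 0 min.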
